A study of Mus musculus with 6 samples.

Results

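B cell and plasma cell genes were followed in whole mouse lung: 9 genes, Cd79a, Cd79b, Ms4a1, Cd22, Pax5, Blk, Ighm, Jchain and Igk, chosen because they encode the B cell receptor, B cell surface proteins and lineage genes. Every probe set whose single platform gene symbol was one of these was taken, which gave 25 of the 45101 probe sets of the array. After probe sets in the lower 40% of brightness were left out, 16 of the 25 and all 9 genes were kept, among 27022 probe sets and 12557 genes. The 9 dim probe sets, 6 of Ighm, 2 of Igk and 1 of Pax5, had intensities of 1.72 to 92.9 and are not described further. The genes were chosen by their intensities and group differences on these same 6 arrays, with their differences already seen, so their values are given as a description and support nothing.

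Lungs of 6 individual FVB/N mice, 2 in each of 3 groups, were each read on an Affymetrix Mouse Genome 430 2.0 array. The R899X high RVSP and R899X normal RVSP mice were heterozygous for TetO7-BMPR2-R899X and for SM22-rtTA, and had a substantially raised or a near normal right ventricular systolic pressure (RVSP) when killed. Control mice carried the SM22-rtTA transactivator alone. All 6 mice, controls included, received doxycycline, which began at 4 weeks of age and lasted 9 weeks, and died at 13 weeks. BMPR2 binds bone morphogenetic proteins at the cell surface, and R899X truncates its cytoplasmic tail. Because SM22 (Tagln) is a smooth muscle gene, its promoter is used to direct the transactivator, and so the transgene, to smooth muscle; which cells of these lungs expressed the transgene was not measured. The series describes all mice as female, and 1 control is labelled without its sex. The comparisons address how lung expression differs with the mutant receptor, with and without raised pressure. Replicates 1 and 2 of a group follow accession order and pair nothing across groups.

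B cells recognise antigen through a surface immunoglobulin built from heavy chains (Ighm for the mu chain) and light chains (Igk for kappa), which signals through the Cd79a and Cd79b chains. Ms4a1 (CD20) and the inhibitory lectin Cd22 lie beside it in the membrane, the Src family kinase Blk acts below it, and Pax5 is the transcription factor that keeps B cells committed to their lineage. Plasma cells, the antibody-secreting end of the lineage, switch Pax5 off and make large amounts of immunoglobulin, and the J chain (Jchain) joins their IgM and IgA into polymers. In the lung such cells lie in the airway wall, in lymphoid follicles and in the vessels.

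Promoters were printed for a receptor gene (Cd79a), a surface gene (Cd22) and a plasma cell gene (Jchain). Over the 6 arrays Cd79a correlated weakly with Cd22 (r = 0.31) and Jchain (0.10). Cd22 and Jchain correlated at 0.89, but this Cd22 probe set, its brightest, had a log2 range of only 0.29. The other kept Cd22 probe set correlated with it at 0.12. RefSeq promoters of build GRCm38.p6, 250 bases before to 50 after the start, held 4 of the 9 genes (Cd79a, Cd22, Jchain and Pax5). They come from the reference strain and not from FVB/N. Each is written 5' to 3' on the strand of its gene, with capitals for a match to one of the motifs ATGCAAAT (octamer), CCCNNGGG (core of the EBF site), the TATA box and an ETS site, searched on both strands. The Cd79a window lies at chr7:24897247-24897546 on the plus strand, Cd22 at chr7:30878979-30879278 on the minus strand and Jchain at chr5:88527848-88528147 on the minus strand.
Cd79a: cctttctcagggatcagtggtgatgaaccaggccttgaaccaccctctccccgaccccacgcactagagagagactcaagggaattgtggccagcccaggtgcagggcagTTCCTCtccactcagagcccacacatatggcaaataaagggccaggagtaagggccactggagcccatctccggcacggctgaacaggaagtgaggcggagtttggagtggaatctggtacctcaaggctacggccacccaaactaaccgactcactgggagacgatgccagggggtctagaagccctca
Cd22: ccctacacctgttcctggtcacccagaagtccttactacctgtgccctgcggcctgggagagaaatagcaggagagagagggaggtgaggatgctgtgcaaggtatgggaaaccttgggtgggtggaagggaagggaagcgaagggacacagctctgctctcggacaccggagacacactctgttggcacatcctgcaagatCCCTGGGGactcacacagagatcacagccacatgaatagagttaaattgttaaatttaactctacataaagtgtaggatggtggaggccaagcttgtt
Jchain: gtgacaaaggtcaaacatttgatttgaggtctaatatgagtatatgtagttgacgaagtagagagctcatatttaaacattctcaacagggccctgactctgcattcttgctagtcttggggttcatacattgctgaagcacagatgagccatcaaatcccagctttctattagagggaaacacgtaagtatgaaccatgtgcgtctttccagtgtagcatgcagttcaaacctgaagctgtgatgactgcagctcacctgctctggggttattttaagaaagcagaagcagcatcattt
The ETS letters searched were GAGGAA, and the Cd79a window held their reverse complement, from base -140 counted from the start. They are found in 28.3% of 32851 promoters of the same length. The Cd22 window held the EBF core at base -48, a match that 13.7% of promoters have, and it extends to CCCNNGGGA, which 6.56% have. The octamer and the TATA box, present in 1.74% and 13.6% of promoters, were found in none of the 4 windows, and the Jchain window had no capitals. The TATA box was searched as TATAAA. An E box, CANNTG, which is not capitalised, was in all 4 windows and in 72.3% of promoters.

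Whole arrays differed beyond the groups. On the first principal component of the kept probe sets, with 35.9% of the variance, R899X normal RVSP 1 scored -36.2 and control 1 scored -41.7, against 8.11 to 26.9 for the other 4 arrays, so results are also given without them where they move. Median intensity per array was 128 to 141. The beta-actin 3'/5' signal ratio, a measure of RNA integrity, was 1.36 and 1.27 in R899X high RVSP, 1.64 and 1.31 in R899X normal RVSP, and 1.89 and 1.45 in control. The Gapdh ratio was 0.72 and 0.74 in R899X high RVSP, 0.70 and 0.87 in R899X normal RVSP, and 0.97 and 1.03 in control, so all 4 R899X mice lay below both controls, while by beta-actin R899X normal RVSP 1 lay between them. Of genes that mark lung epithelium, Sftpc (surfactant protein C) had 26211.5 to 40876 and Scgb1a1 (club cell secretory protein) 33258 to 51443 over the 6 arrays. Tagln, whose promoter drives the transactivator, ranged from 4115 to 5622, and the 3 Bmpr2 probe sets did not order the groups alike. The brightest had 17087 and 15398 in R899X high RVSP, 18835 and 16849 in R899X normal RVSP, and 19768 and 15872 in control. The next had 1928 and 2170.1 in R899X high RVSP, 657 and 1987 in R899X normal RVSP, and 436 and 2047 in control. The dimmest had 331 and 358 in R899X high RVSP, 460.1 and 373 in R899X normal RVSP, and 302 and 408 in control. With 2 mice in a group, the number of arrays limits the precision of every value.

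The receptor chains came first. Cd79a had intensities of 958 and 657 in R899X high RVSP lungs, 539.9 and 776 in R899X normal RVSP lungs, and 543 and 429 in control lungs. Both high RVSP mice lay above both controls, and the normal RVSP mice overlapped both other groups. The log2 difference was 0.70 ± 0.26 for high RVSP against control, 0.41 ± 0.26 for normal RVSP against control and 0.29 ± 0.26 between the R899X groups (limma, ± SE of log2(intensity + 16), as for all differences here). Cd79b, the partner chain, had 1263 and 655 in R899X high RVSP lungs, 501 and 898 in R899X normal RVSP lungs, and 614 and 643 in control lungs. R899X high RVSP 2 lay just above the controls and R899X high RVSP 1 far above them, a difference of 0.52 ± 0.35. As a fold it was 1.44, taken, like all folds here, from the difference of log2(intensity + 16) and not from mean intensities. In whole lung, a difference in the number of B cells and one in RNA per B cell cannot be told apart, whether a value is higher or lower.

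Ighm, the mu heavy chain, was read by 5 kept probe sets. The brightest, 1427329_a_at, had 3154 and 1999 in R899X high RVSP lungs, 1949.7 and 2313 in R899X normal RVSP lungs, and 2139 and 1773 in control lungs, a difference of 0.36 ± 0.23 for high RVSP against control, with overlapping groups. The next, 1427351_s_at, had 2375 and 1357 in R899X high RVSP lungs, 1144 and 1533 in R899X normal RVSP lungs, and 1973 and 1510.1 in control lungs, which left high RVSP and control level (0.06 ± 0.28). The other 3 were dim and did not follow the brightest. Probe set 1425247_a_at had 99.7 and 126 in R899X high RVSP lungs, 133 and 85.3 in R899X normal RVSP lungs, and 174 and 178 in control lungs, so all 4 R899X mice lay below both controls (high RVSP against control -0.58 ± 0.29). The values of 1427870_x_at were also lower in both high RVSP mice than in both controls (-0.24 ± 0.22), and those of 1452535_at higher (0.27 ± 0.26). Correlations of these 4 with the brightest over the 6 arrays were 0.77, -0.12, -0.65 and -0.01 for 1427351_s_at, 1427870_x_at, 1425247_a_at and 1452535_at. Immunoglobulin genes are a family of near copies, so which transcripts each Ighm and Igk probe set reads is uncertain.

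Igk, the kappa light chain, had the widest difference of the 9 genes. Its brightest probe set, 1425738_at, had 338 and 265 in R899X high RVSP lungs, 123 and 233 in R899X normal RVSP lungs, and 61.3 and 104 in control lungs. No group overlapped another, in the order high RVSP, normal RVSP, control. The differences were 1.71 ± 0.36 for high RVSP against control, a fold of 3.27, then 0.95 ± 0.36 for normal RVSP against control and 0.76 ± 0.36 between the R899X groups. The other kept Igk probe set, 1452557_a_at, ran the other way, with 131 and 99.9 in R899X high RVSP lungs, 109 and 94.2 in R899X normal RVSP lungs, and 148 and 123 in control lungs (high RVSP against control -0.21 ± 0.27), and its correlation with the first was -0.53. Of the bright kappa probe sets that carry several gene symbols, and so are no members, none showed the order of 1425738_at: one had 10052 and 6705 in R899X high RVSP lungs, 5557 and 7362 in R899X normal RVSP lungs, and 6955 and 7823 in control lungs (high RVSP against control 0.15). A dimmer kappa probe set with several symbols had 195 and 161 in R899X high RVSP lungs, 76.4 and 144 in R899X normal RVSP lungs, and 72.3 and 127 in control lungs, so both high RVSP mice lay above the other 4 (high RVSP against control 0.78), while normal RVSP and control overlapped.

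Among the surface proteins, Ms4a1 varied within every group. Its brightest probe set had 2341 and 1143 in R899X high RVSP lungs, 845 and 1378 in R899X normal RVSP lungs, and 1694 and 964 in control lungs, differing by 0.35 ± 0.40 for high RVSP against control and 0.59 ± 0.40 between the R899X groups. High RVSP and control overlapped, and the gap between the 2 high RVSP mice was 1.02. A second probe set, 1450912_at, had 1639 and 851 in R899X high RVSP lungs, 425 and 801 in R899X normal RVSP lungs, and 1334 and 428 in control lungs, and followed the first with r = 0.95. There both high RVSP mice lay above both normal RVSP mice, at a fold of 1.99.

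Cd22, which dampens receptor signalling, was nearly flat in its brightest probe set. It had 793 and 644 in R899X high RVSP lungs, 710.3 and 726 in R899X normal RVSP lungs, and 717 and 739 in control lungs, a difference of -0.03 ± 0.18 for high RVSP against control. The dimmer probe set 1419769_at had 218 and 191 in R899X high RVSP lungs, 140.4 and 106 in R899X normal RVSP lungs, and 154 and 167 in control lungs. There high RVSP lay above control (0.32 ± 0.25) and normal RVSP below it (-0.36 ± 0.25), with no overlap, and the 2 probe sets correlated at 0.12.

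Blk, the Src family kinase of B cells, had 334 and 186 in R899X high RVSP lungs, 211 and 249.9 in R899X normal RVSP lungs, and 243 and 220.0 in control lungs. The high RVSP mice lay on either side of all the others (0.11 ± 0.29 against control). Pax5 had 67.2 and 103 in R899X high RVSP lungs, 120.4 and 84.9 in R899X normal RVSP lungs, and 81.8 and 68.8 in control lungs. Both normal RVSP mice lay above both controls (0.37 ± 0.32), while high RVSP overlapped control (0.13 ± 0.32). These values lie near the brightness filter, which fell at an intensity of 74.9, and the differences of dim probe sets are understated on this scale.

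Jchain, from plasma cells and some B cells, went against the receptor chains in the group means. It had 1985 and 1268 in R899X high RVSP lungs, 1474 and 1594 in R899X normal RVSP lungs, and 1870.1 and 1807 in control lungs. The normal RVSP mice were below both controls (-0.26 ± 0.22), and the high RVSP mice held both the highest and the lowest value of the 6 (-0.21 ± 0.22).

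**Figure D1:**
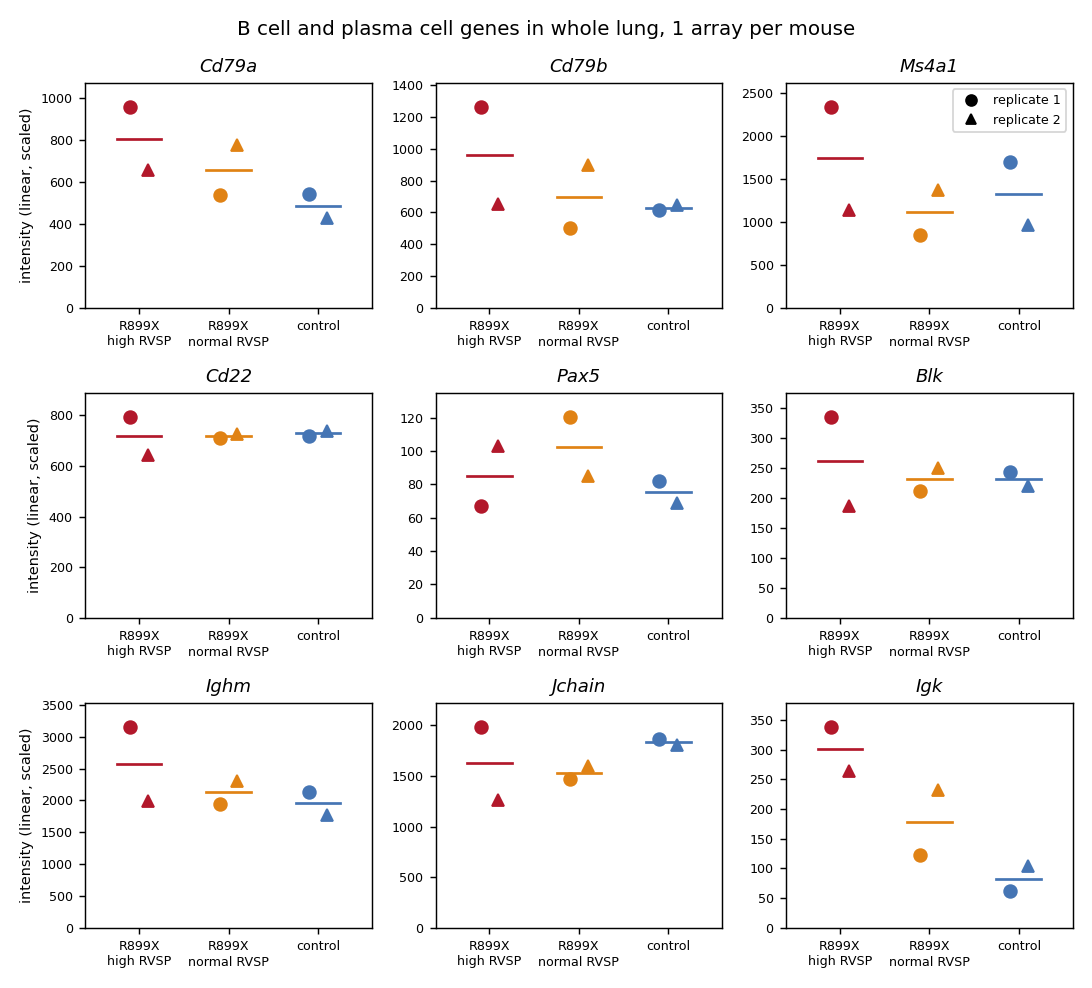
Linear scaled intensity (y axis, from 0) of the brightest probe set of each of the 9 genes in the 3 groups (x axis), with circles for replicate 1, triangles for replicate 2 and a bar at the group mean of 2 mice. For 8 of the 9 genes R899X high RVSP 1 is the highest of the 6 points, and for Igk no groups overlap.

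**Figure D2:**
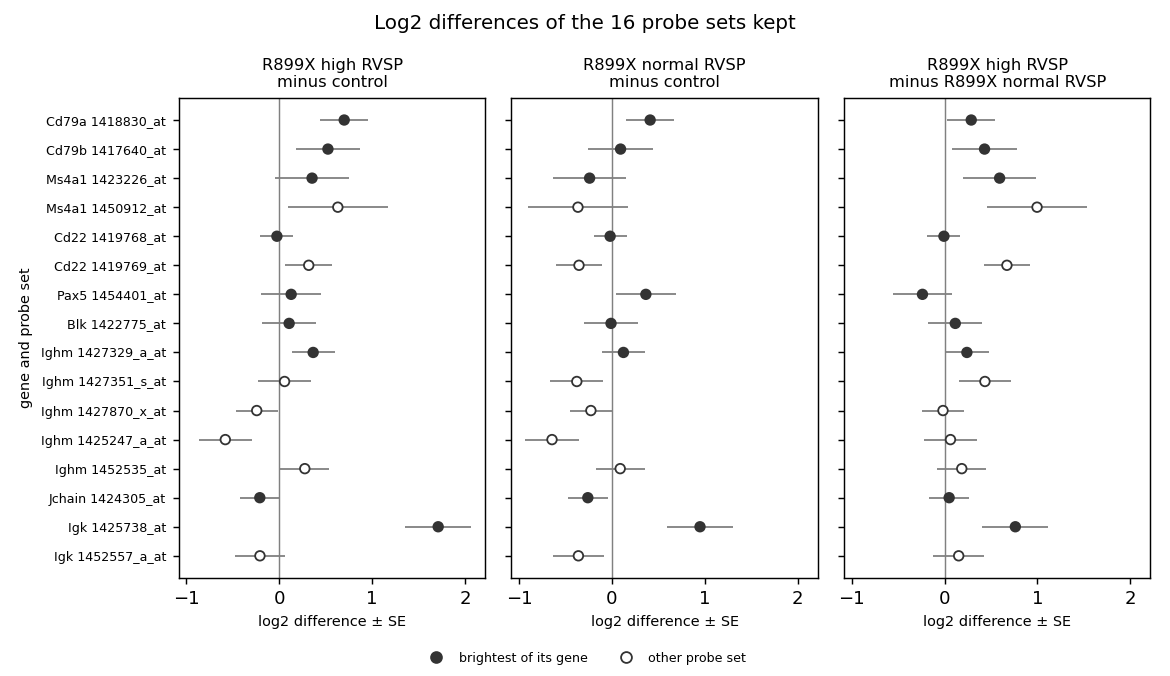
Log2 difference with its SE (x axis) for the 16 probe sets kept (rows), in 3 comparisons, with filled points for the brightest probe set of a gene and open points for its others. Igk spans from 1.71 for its brightest probe set to -0.21 for its other one in R899X high RVSP against control.

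Across many genes none of these differences passed. In limma's fit with Benjamini-Hochberg adjustment at 0.05 over all 27022 probe sets, 0 of the 16 probe sets were called in any of 4 comparisons: R899X high RVSP minus control, R899X normal RVSP minus control, R899X high minus normal RVSP, and the 4 R899X mice minus control. In each, 0% of all probe sets were called. The smallest adjusted p over all probe sets was 0.801, 0.987, 0.9996 and 0.832 in these 4 comparisons. At an unadjusted p under 0.05, 2 of the 16 passed in high RVSP against control, where 5.65% of all probe sets did, 1 in normal RVSP against control (4.34% of all), 1 between the R899X groups (2.62% of all) and 3 with all R899X mice pooled (5.92% of all). They were Cd79a and Igk in the first comparison, Igk in the second, the dimmer Cd22 probe set in the third, and Cd79a, Igk and Ighm 1425247_a_at in the last. Without control 1 and R899X normal RVSP 1, with 1 residual degree of freedom and 1 array left in each of those groups, Igk 1425738_at and Ms4a1 1450912_at passed in high RVSP minus control (adjusted p = 0.0208 and 0.00915), among 313 probe sets. Comparisons with control share the same 2 control arrays.

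Counted by whether arrays overlapped, 5 of the 16 probe sets were higher in both high RVSP mice than in both controls, a pattern that 19.1% of all probe sets show, and 2 were lower (18.2% of all). The 5 were those of Cd79a and Cd79b, the brightest of Igk, the dimmer of Cd22 and Ighm 1452535_at, and the 2 were Ighm 1427870_x_at and 1425247_a_at. Between normal RVSP and control, 3 were higher (14.4% of all), from Pax5, Igk and Ighm, and 5 lower (15.1% of all), from Jchain, Cd22, Igk and Ighm. Between high and normal RVSP, 3 were higher (16.7% of all), from Igk, Ms4a1 and Cd22, and 0 lower (15.5% of all). With all 4 R899X mice against control, 2 were higher (7.52% of all), from Igk and Ighm, and 2 lower (7.71% of all), both from Ighm. With 1 probe set per gene, 7 of the 9 genes were higher and 2 lower in high RVSP than in control, with a median difference of 0.35, against 46.1% of 12557 genes higher and a median of -0.02. For normal RVSP against control 5 were higher and 4 lower (median 0.09, and 0.02 over all genes). Between the R899X groups 7 were higher and 2 lower (median 0.24, and -0.03 over all genes). With all 4 R899X mice against control 7 were higher and 2 lower (median 0.24).

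These medians moved with single mice. Without R899X high RVSP 1 the high RVSP against control median was 0.04, with 5 genes higher and 4 lower, and without control 2 it was 0.04. Without R899X high RVSP 2 it was 0.69, and without control 1 it was 0.49. Between the R899X groups the median was -0.03 without R899X high RVSP 1, with 4 higher and 5 lower, 0.02 without R899X normal RVSP 1, and 0.55 without R899X high RVSP 2. For normal RVSP against control the median was -0.035 when R899X normal RVSP 2 was left out, 0.0015 when control 2 was, and 0.38 when control 1 and R899X normal RVSP 1 both were. With all 4 R899X mice it was 0.076 without R899X high RVSP 1, 0.10 without R899X normal RVSP 2, 0.11 without control 2 and 0.44 without control 1 and R899X normal RVSP 1.

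Looking at mice and not groups, R899X high RVSP 1 was the highest array for 8 of the 9 genes, the exception being Pax5, for which it was the lowest. Over all 12557 genes this array was the highest for 9.84%. Among the 16 kept probe sets it was the highest in 11, or 68.8%, against 12.3% of all probe sets. Averaged over the 9 genes, deviations from the gene's own mean were 0.48 and -0.04 in R899X high RVSP, -0.20 and 0.14 in R899X normal RVSP, and -0.13 and -0.25 in control. The R899X high RVSP mice differed from each other by a median of 0.64 over the 9 genes, against 0.16 over all genes. The normal RVSP mice differed by 0.43 (0.22 over all genes) and the controls by 0.21 (0.24 over all genes). Within the high RVSP pair replicate 1 exceeded replicate 2 in 8 of 9 genes (48.6% of all genes). In the normal RVSP pair it did so in 1 of 9 (58.1% of all), and in the control pair in 6 of 9 (51.8% of all).

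**Figure D3:**
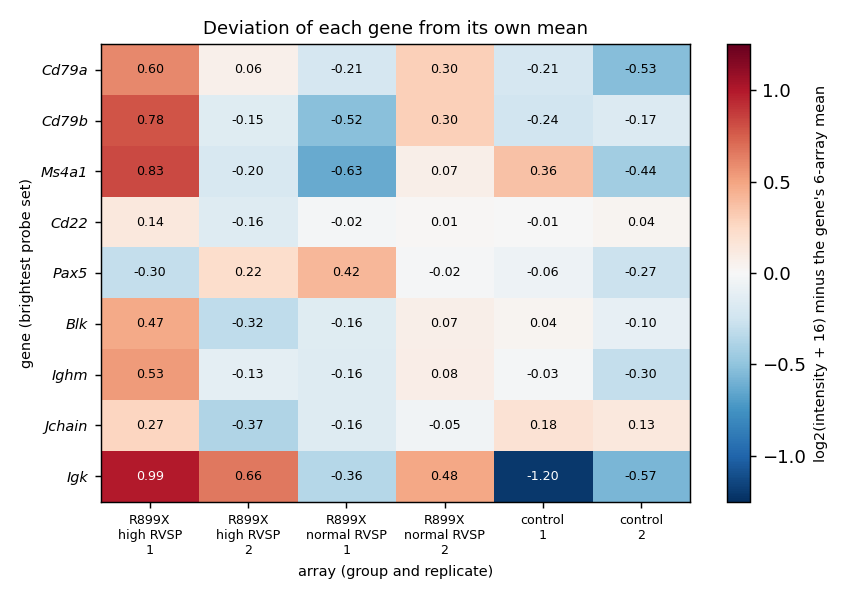
Deviation of log2(intensity + 16) from each gene's 6-array mean (colour and printed values) for the 9 genes (rows) on the 6 arrays (columns). The column of R899X high RVSP 1 is above 0 in all genes but Pax5, from 0.14 for Cd22 to 0.99 for Igk, and Igk in control 1 is the lowest value at -1.20.

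Most of the genes were correlated over the mice. Of 36 pairs, 27 had a correlation above 0, with a median r of 0.61, and 12 exceeded 0.8. The closest pair was Cd79a with Ighm (Pearson r = 0.91, Spearman rho = 0.94, n = 6 arrays). Pax5 was below 0 with all 8 others. All genes share the same 6 RNA samples, and R899X high RVSP 1 was the highest array for 8 of the 9 and the lowest for Pax5. These correlations are descriptions and carry no test. Those of other gene pairs were not counted.

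By the same measure, 3603 probe sets with a log2 range of at least 1 were ranked for likeness to the mean profile of the 9 genes, leaving out genes of the B cell, plasma cell and immunoglobulin lists. Of these, 12 (0.333%) had r over 0.9. The closest 10 genes were Wbp11 (r = 0.97), Slc2a3, a glucose transporter (0.95), Ackr1, a chemokine-binding receptor (0.94), Ly6d, a surface protein of lymphocyte progenitors and B cells (0.94), the immunoglobulin heavy chain variable gene Ighv14-2 (0.94), St7l (0.93), the nuclear receptors Nr4a1 and Nr4a2 (0.92 each), Edn3, a vasoactive peptide (0.92), and Akap9, a scaffold for protein kinase A (0.91). Ly6d had 751 and 495 in R899X high RVSP lungs, 285 and 513 in R899X normal RVSP lungs, and 344 and 338 in control lungs. Nr4a1 had 2621 and 1533 in R899X high RVSP lungs, 1316 and 2230.2 in R899X normal RVSP lungs, and 1202 and 1419 in control lungs. R899X high RVSP 1 had the highest value of both. The profile used for the ranking is itself highest in that array (0.48), so the choice of genes favoured this.

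Other B cell surface and receptor signalling genes had a lower median than the 9 genes in high RVSP against control (0.35 for the 9). Between the R899X groups their median was not lower (0.24 for the 9). The 9 genes were chosen with their differences known, which by itself favours wider differences in them. Of 25 other B cell surface and receptor signalling genes, 21 were kept and 0 were called. In high RVSP against control 16 were higher and 5 lower (median 0.14), and between the R899X groups 15 were higher and 6 lower (median 0.29). Cxcr5, the follicle-homing chemokine receptor, had 309 and 223 in R899X high RVSP lungs, 132 and 157 in R899X normal RVSP lungs, and 208 and 159.5 in control lungs (0.80 ± 0.27 between the R899X groups). Ltb, a lymphotoxin subunit, had 1282 and 1186 in R899X high RVSP lungs, 836 and 1208 in R899X normal RVSP lungs, and 931 and 995 in control lungs (0.35 ± 0.20 against control). Leaving out R899X high RVSP 1 gave 0.046 for the first median and leaving out R899X high RVSP 2 gave 0.32, while leaving out control 2 gave -0.014 and control 1 gave 0.31. Between the R899X groups the median dropped to 0.077 when R899X high RVSP 1 was left out, and to 0.076 when R899X normal RVSP 1 was. R899X high RVSP 1 was the highest array for 9 of the 21.

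Of 9 other B lineage transcription factors, 8 were kept and 0 called, with 4 higher and 4 lower in high RVSP than in control (median -0.04) and 6 higher and 2 lower between the R899X groups (median 0.29). Leaving out control 1 gave 0.11 for the first median, and leaving out R899X high RVSP 1 gave -0.20. The second was 0.019 when R899X high RVSP 1 was left out and -0.043 when R899X normal RVSP 1 was. Spib, a B cell and dendritic cell ETS factor, had 709.8 and 275 in R899X high RVSP lungs, 282 and 369 in R899X normal RVSP lungs, and 386 and 363 in control lungs. Its value in R899X high RVSP 1 stood clear of the other 5. Bach2, a repressor of plasma cell differentiation, had 1118 and 874 in R899X high RVSP lungs, 407 and 1088 in R899X normal RVSP lungs, and 1161 and 1161 in control lungs, with R899X normal RVSP 1 well below the others.

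Plasma cell genes, 11 kept of 12 and 0 called, were even, with 6 higher and 5 lower in high RVSP than in control (median 0.02). Which lung cells carried the RNA of these genes was not measured, so the count does not give the number of plasma cells. Xbp1, the secretory pathway factor, had 14462 and 13912 in R899X high RVSP lungs, 12159 and 13622 in R899X normal RVSP lungs, and 17566 and 12020.1 in control lungs. R899X high RVSP 1 was the highest array for 2 of these 11 genes. Heavy chain Igha, of the IgA that the J chain joins, had 7588 and 5096 in R899X high RVSP lungs, 7149.9 and 6711 in R899X normal RVSP lungs, and 7045 and 7288 in control lungs (-0.20 ± 0.20 against control). Ighg3 had 328 and 217 in R899X high RVSP lungs, 169 and 175 in R899X normal RVSP lungs, and 172 and 147 in control lungs (0.70 ± 0.26). Of 30 other immunoglobulin probe sets with 1 symbol, 13 were kept, and 10 of these were highest in R899X high RVSP 1.

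Precursor genes of the bone marrow B cell were near the floor: Rag1 was at most 26.3 and Dntt at most 68.2 on any array, and of 6 such genes only Il7r was kept. Cxcl13, the chemokine that draws B cells into follicles, had 109.8 and 169 in R899X high RVSP lungs, 205 and 219 in R899X normal RVSP lungs, and 217 and 189 in control lungs, so both high RVSP mice were below the other 4 (-0.52 ± 0.27 against control). Of the lymphoid stroma list, 4 genes of 12 were kept. Glycam1, an endothelial ligand of lymph node venules, was below the brightness filter, and thymus epithelium genes kept 2 of 4.

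Some markers of other cells were also high in R899X high RVSP 1. Neutrophil markers, 9 of 10 kept, had mean deviations of 0.28 and -0.14 in R899X high RVSP, -0.24 and 0.11 in R899X normal RVSP, and -0.04 and 0.03 in control, and R899X high RVSP 1 was the highest array for 6 of the 9. In high RVSP against control 6 were higher and 3 lower (median 0.23, but -0.09 without R899X high RVSP 1, 0.44 without R899X high RVSP 2 and 0.11 without control 2). Their summed intensity ran from 42120 to 59588 in R899X high RVSP, from 43119 to 50685 in R899X normal RVSP, and from 41076 to 44914 in control. T cell markers, 14 of 20 kept, had 0.13 and 0.12 in R899X high RVSP, -0.17 and 0.10 in R899X normal RVSP, and -0.08 and -0.09 in control, so both high RVSP mice were alike. In high RVSP against control 12 were higher and 2 lower (median 0.21, and 0.21 to 0.25 when 1 mouse was left out). Of the 14, 7 were higher in both high RVSP mice than in both controls (19.1% of all probe sets) and 0 were lower (18.2% of all). Their sums ran from 6749 to 6851 in R899X high RVSP, from 5406 to 6898 in R899X normal RVSP, and from 5910.3 to 5920.2 in control, and Cd4 was below the filter. Platelet markers, 7 of 7 kept, were higher in high RVSP than in control in 7 (median 0.50, and 0.30 without R899X high RVSP 2), with R899X high RVSP 2 the highest array for 6. Their sums were 4868 and 7191 in R899X high RVSP, 4691 and 4751 in R899X normal RVSP, and 3369.6 and 4543 in control. Of 8 red cell markers 2 were kept, and Alas2, a heme synthesis enzyme, had 552 and 3388 in R899X high RVSP lungs, 2169 and 652 in R899X normal RVSP lungs, and 829 and 1671 in control lungs. NK cell markers (8 kept, 2 higher and 6 lower) and macrophage markers (9 kept, 3 higher and 6 lower) had medians of -0.08 and -0.05 in high RVSP against control. MHC class II presentation genes (9 kept, 3 higher and 6 lower, median -0.14, and 0.071 without control 1) included H2-DMb2, with 717 and 621 in R899X high RVSP lungs, 299 and 527 in R899X normal RVSP lungs, and 358 and 373 in control lungs (0.84 ± 0.27). In no list was a gene called. The part of these cells, and of the RNA integrity ratios, in the values of the 9 genes was not tested.

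**Figure D4:**
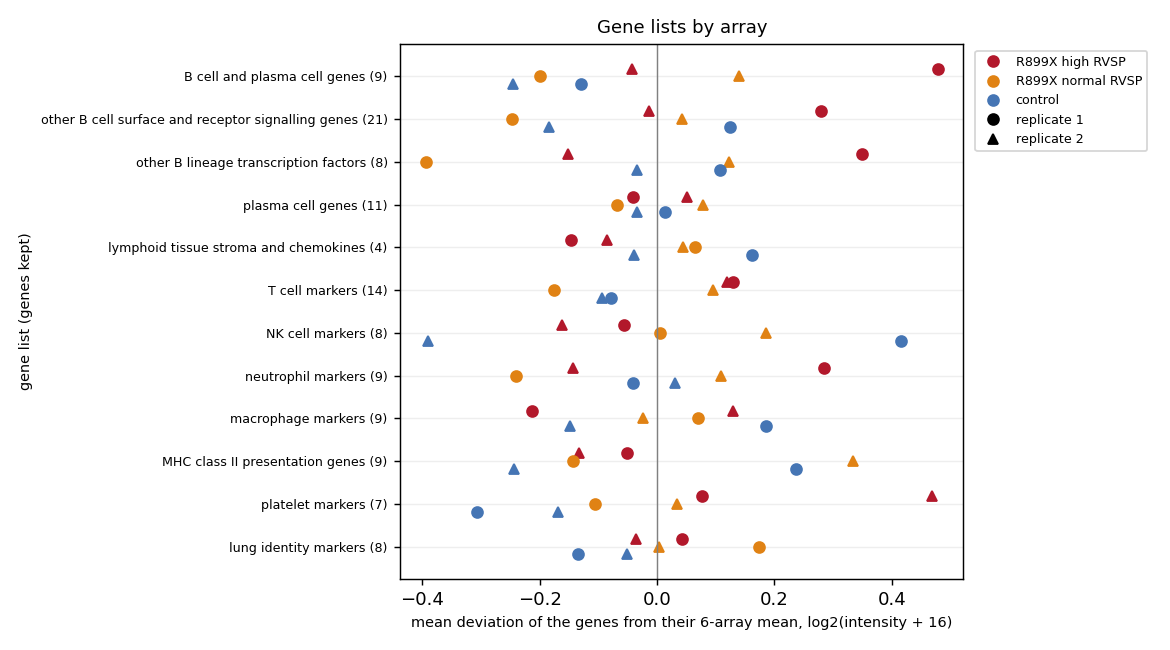
Mean deviation of the kept genes of each list from their 6-array means, in log2(intensity + 16) (x axis), for 12 gene lists (rows), by group (colour) and replicate (circle or triangle). R899X high RVSP 1 is the highest array at 0.48 for the 9 B cell and plasma cell genes and at 0.28 for other B cell surface genes. It is also the highest for other B lineage transcription factors (0.35), neutrophil markers (0.28) and, narrowly, T cell markers (0.13). R899X high RVSP 2 is the highest for platelet markers.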

How the data were processed

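Per the labels, each mouse gave 1 array; RNA came from the right lung, rinsed with saline after heparin. The deposited values are linear intensities, 1 per probe set and array; on each array their mean after trimming 2% at each end was 500. Their summary algorithm is not given in the sources. Probe sets were named from the platform annotation. Values were turned into log2(intensity + 16); 64 control probe sets and the lower 40% by mean over all arrays (18015) were left out. A model with 3 group means over all 6 arrays was fitted in limma 3.58.1 (R 4.3.3; intensity trend, 3 residual degrees of freedom), with two-sided tests and Benjamini-Hochberg adjustment at 0.05 over 27022 probe sets. Each p-value sets a group difference against the spread between mice of the same group. That spread was moderated with information from all probe sets kept (5.06 prior degrees of freedom). No exact permutation test was used, since 2 against 2 arrays cannot go below p = 0.333. The fit was run on simulated data, with independent probe sets and spreads drawn from the fit itself. There it called 13.2% of 2-fold and 81.2% of 4-fold changes between high RVSP and control, and 4.67% of its calls were false. Most changes of 2-fold would thus be missed even where the data follow the fitted model. The brightest probe set stands for a gene. The members and lists were chosen with earlier results of these data known. All members were named; of other lists, the 3 brightest genes and the 3 of widest high RVSP against control difference could be, and the 10 genes of most like profile. A few others were named after their values were seen: Rag1, Dntt, Cd4 and Glycam1. Alternatives were other offsets, filters and normalizations, fewer groups, left-out arrays and the mean of a gene's probe sets.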

Additional observations from a re-analysis of the deposited data

Results flagged for a closer look

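From a scan of the 16 kept probe sets, the dimmer one of Cd22, 1419769_at, was singled out because R899X high RVSP and R899X normal RVSP lay on opposite sides of control in every mouse. The share of all probe sets with this pattern was not counted. The log2 difference of high minus normal RVSP was 0.67 ± 0.25. In limma's fit its adjusted p was 0.9996 with 2 mice a group, so it did not pass. The brightest Cd22 probe set had a difference of -0.01 ± 0.18 in the same comparison.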

How the results depend on the processing

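No paired analysis was possible because the labels give no replicate numbers shared between groups. In R899X high RVSP against control 1 probe set was called when only those groups were fitted. Without control 1 and R899X normal RVSP 1 together, which leaves 1 array in each of those groups, assumed to vary like the others, and 1 residual degree of freedom, 313, 131, 56 and 228 probe sets were called in the comparisons high RVSP minus control, normal RVSP minus control, high minus normal RVSP, and the 4 R899X mice minus control. In that fit 2 member probe sets, Igk 1425738_at and Ms4a1 1450912_at, were called in the first comparison (1.39 and 1.43) and 2 in the last (1.22 and 1.16). Leaving out 1 mouse called 0 to 2, 0 to 4, 0 to 43 and 0 to 6 probe sets in these comparisons, and 0 member probe sets in each. The median over the 9 genes then ran from 0.038 to 0.69, from -0.035 to 0.16, from -0.034 to 0.55 and from 0.076 to 0.35. The highest counts came without R899X normal RVSP 2 (4 in normal RVSP minus control, 43 in high minus normal RVSP) and without control 2 (2 in high RVSP minus control, 6 in R899X minus control). With the mean of all probe sets of a gene in place of the brightest, the median was 0.15 in R899X high RVSP against control. In all R899X against control it was 0.09. With the lower 60% left out, Igk and Pax5 fell below the filter. The median of the genes that remained was 0.06 in all R899X against control, so this value is over fewer genes. Of 496 differences of single member genes under the alternatives, 41 changed sign and 27 moved by at least 1 SD between replicates. The causes were not tested.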

Other observations

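Of the immunoglobulin probe sets with several gene symbols, 13 in all, 6 were kept and 3 of these were highest in R899X high RVSP 1. The brightest kappa one had 15485 and 11881 in R899X high RVSP lungs, 11643 and 13683 in R899X normal RVSP lungs, and 18599 and 12861 in control lungs, a high RVSP against control difference of -0.19. Control 1 was its highest array, whereas control 1 was the lowest array for the Igk probe set 1425738_at. Iglv1, a lambda variable gene, had 381 and 115 in R899X high RVSP lungs, 66.8 and 179 in R899X normal RVSP lungs, and 314 and 129 in control lungs, so mice of a group differed more than the groups (high RVSP against control 0.06 ± 0.63).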
